A study of Mus musculus with 36 samples.

Results

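The colon of mice that lack Il17rc was compared between day 15 of a colitis-associated cancer protocol and the untreated state. Arrays were taken by their titles, 4 from KO colons at day 15 and 4 from untreated KO colons, which are 8 of the 36 arrays of the series, and all 17097 genes measured by at least 1 probe set with a single gene symbol were described. In the labels the genotype is IL-17RC_KO or WT, and the mice were 6 to 8 weeks old. Treated animals were given azoxymethane (AOM), a carcinogen that acts on colon epithelium, before 3 rounds of dextran sulfate sodium (DSS), a polymer that injures the colon lining, at 3% in the drinking water for 5 days, each with 14 days of normal water after it. The day 15 groups were KO and WT mice under this protocol, labelled as AOM-DSS. The 3 rounds are those of the full protocol. If days count from its start, the day 15 mice had not had all 3. The untreated groups were KO and WT mice labelled day 0 that had neither agent. How day 15 falls relative to the DSS rounds, and the knockout allele, strain background, sex, litter and time of day of collection, are details that the sources used here do not state. Age and protocol cannot be told apart between day 15 and day 0. RNA came from whole minced colon, so that fewer cells of a type and less RNA per cell cannot be told apart.

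IL-17RC pairs with IL-17RA to form the receptor for IL-17A and IL-17F, cytokines of T helper 17 cells and innate lymphoid cells. In epithelial and stromal cells this receptor induces chemokines that draw neutrophils, antimicrobial peptides and acute-phase proteins, and many of the same genes are also induced by IL-1 and tumor necrosis factor. Neutrophils, macrophages and interferon-gamma-producing lymphocytes enter the colon wall when DSS damages the epithelium.

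Il17rc itself was read first, as a check of the labels. Its bright probe set had deposited intensities of 13, 9, 12 and 9 in KO day 15 arrays, against 7, 15, 10 and 9 in untreated KO arrays. WT arrays had 301, 257, 341 and 109 at day 15, against 271, 330, 318 and 248 untreated. All 8 KO arrays thus lay below all 8 of these WT arrays. KO tumor arrays (8 to 10) also lay below WT tumor arrays (76 to 223). In KO day 7 arrays the range was 10 to 331, with a median of 28, against 340 to 515 in WT day 7 arrays. The highest KO day 7 array thus lay within the WT day 15 range, so the check did not hold for that group. The cause was not tested. KO day 7 values given below include this array, as does the model over the whole series. Fits over the 8 arrays alone leave it out. Intensities are linear values deposited per probe set, with array medians from 14 to 16, so values of about 16 or lower lie near background. In colon epithelium 9 of 10 markers were measured, none with a mean below 16, and their summed intensity was 13586 to 22168 in KO day 15 arrays, against 23338 to 27899 in untreated KO arrays. Squamous epithelium markers (7 measured), which marked other arrays of the series, summed to 79 to 156 and 75 to 133, and Krt5, a keratin of that epithelium, stayed at 17 to 21 and 20 to 22.

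KO day 15 replicate 4 stood apart from the other 3 arrays of its group. It had the lowest sum of colon epithelium markers (13586) and of the 4 goblet cell markers (8029, in a group range of 8029 to 26619, against 21933 to 24435 in untreated KO arrays), and the highest sum of the 4 neutrophil markers (17342). Log2 intensities within the KO day 15 group correlated at 0.95 to 0.991, and within the untreated KO group at 0.989 to 0.995. WT day 15 replicate 4 also stood far above the other WT day 15 arrays in some genes. It had 5585 for S100a8 (490, 869 and 192 in the others), 8698 for Saa3 (789, 1131 and 144) and 3317 for Hp (104, 352 and 48). It did not for Arg2 (97, 49, 138 and 142 in replicates 1 to 4) or Reg3b (188, 115, 41 and 96). Deviations of the KO and WT replicates 4 from their group means correlated at 0.801. The cause was not tested. For most results that rest on KO day 15 replicate 4, values without it are also given, but not for all.

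Between KO day 15 and untreated KO colon, 139 genes (0.813% of 17097) passed an adjusted p of 0.05 in a limma model over all 36 arrays. Of these, 84 rose (0.491%) and 55 fell (0.322%). Genes of neutrophils, IL-1 cytokines, chemokines and acute-phase proteins were among the largest rises, and genes of epithelial calcium transport, the clock output gene Dbp and the interferon-inducible GTPase gene Gbp2b among the falls. In 69 of the 84 rises KO day 15 replicate 4 had the highest value, and in 38 of the 55 falls the lowest. The count depended on single arrays. It was 78 without KO day 15 replicate 1, 636 without replicate 2, 470 without replicate 3 and 39 without replicate 4, and 59, 69 and 71 without untreated KO replicates 1, 2 and 4. Without KO day 15 replicate 4, 23 genes rose (0.135%) and 16 fell (0.0936%), 36 of these 39 were among the 139, and all 139 kept their direction. In 112 of the 139 the groups did not overlap, so leaving out 1 array could hardly turn their direction. The count was 35 when the spread was estimated from these 8 arrays alone. Of 59 called genes that the naming rule picked, 27 stayed called when any 1 of the 8 arrays was left out, 16 with these 8 arrays alone, and 9 under both conditions. These 9 were S100a8, S100a9, Saa3, Acod1, Cxcl2, Il1b, Trpv6, Gbp2b and Alox15.

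S100a8 and S100a9 encode the 2 subunits of calprotectin, the calcium- and zinc-binding protein that fills the neutrophil cytosol. S100a8 had intensities of 1158, 1356, 1043 and 6239 in KO day 15 arrays, against 8, 9, 12 and 9 in untreated KO arrays. Its log2 difference was 7.39 ± 1.32 (standard error; limma adjusted p = 0.00299). S100a9 had 1909, 3114, 2419 and 10686, against 21, 32, 35 and 25 in untreated KO (6.90 ± 1.26, adjusted p = 0.00345). For both, every day 15 array lay far above every untreated array, with replicate 4 at the top. Untreated S100a8 was near background, so its size depends on the pseudocount: with 16 in place of 1 the differences were 6.11 for S100a8 and 6.30 for S100a9 (adjusted p = 0.00406 for both). Both remained past the threshold without replicate 4, at 6.78 and 6.34 log2 units (adjusted p = 0.0266 and 0.0303).

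Receptors of myeloid cells followed the calprotectin genes. Clec4e, which encodes Mincle, a C-type lectin that senses fungal and mycobacterial glycolipids and dead cells, had 115, 156, 129 and 1574 in KO day 15 arrays, against 7, 12, 8 and 7 in untreated KO arrays. Its difference was 4.65 ± 0.69 (adjusted p = 0.000383), and 3.75 without replicate 4. The related lectin gene Clec4d had 138, 208, 213 and 2126, against 28, 29, 19 and 16 in untreated KO (3.75 ± 0.69, adjusted p = 0.00391). Fpr2, a formyl peptide receptor that guides neutrophils, had 170, 181, 180 and 2142, against 15, 20, 22 and 19 in untreated KO (3.97 ± 0.75, adjusted p = 0.0048). In all 3 genes replicates 1 to 3 lay close together and replicate 4 several-fold higher. Without replicate 4 the differences were 2.86 for Clec4d and 3.06 for Fpr2, nearer the threshold (adjusted p = 0.0374 and 0.0494). Csf3r, the receptor for granulocyte colony-stimulating factor, had 33, 44, 54 and 352, against 16, 15, 14 and 15 in untreated KO, and its call ended without replicate 4 (adjusted p = 0.069). Of the 18 measured neutrophil genes 8 rose and none fell, with a median log2 difference of 2.49. Of all genes 0.491% rose and 0.322% fell, with a median of -0.02. In 12 of the 18 the 4 day 15 arrays lay above the 4 untreated arrays, which held for 4.73% of all genes. Without replicate 4, 5 of the 18 rose and the median was 1.55. The 4 neutrophil markers summed to 3121 to 17342 in KO day 15 arrays, against 57 to 72 in untreated KO arrays.

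**Figure D1:**
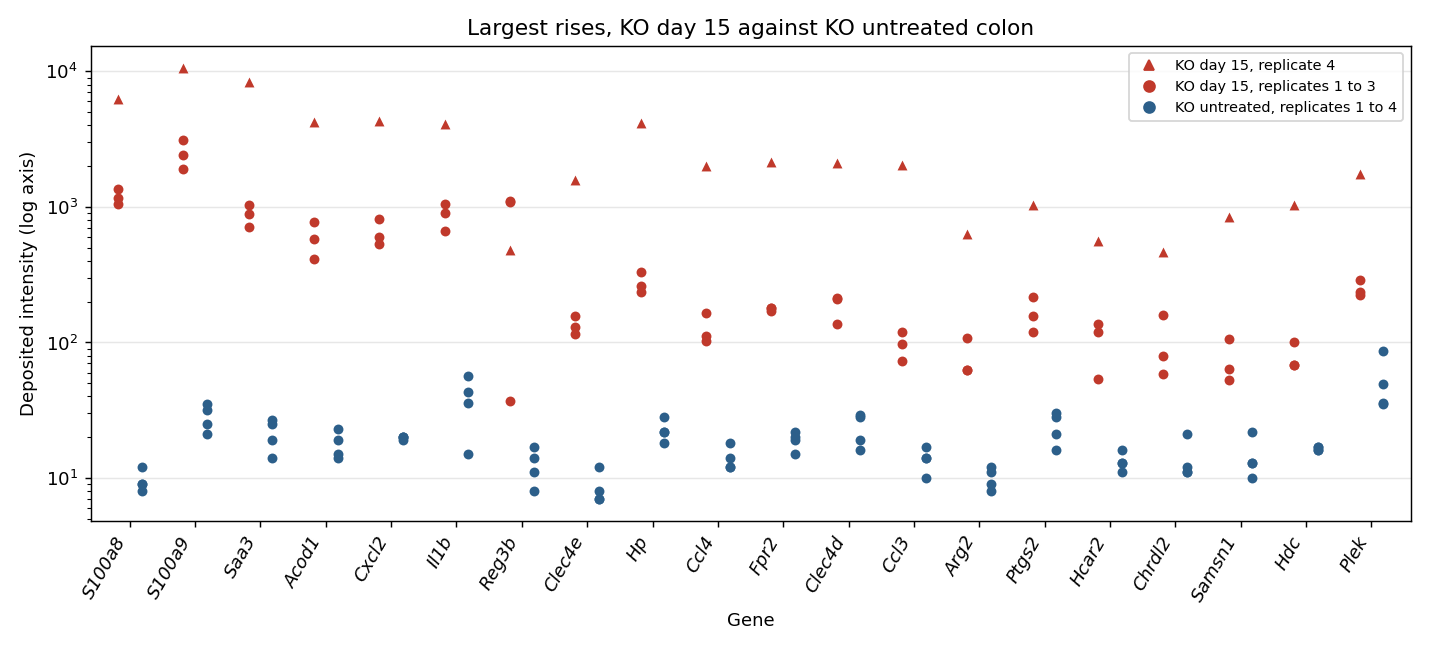
Deposited intensity on a log axis for the 20 largest rises, 1 point per array, KO day 15 in red (replicate 4 as a triangle) left of KO untreated in blue. The day 15 arrays lie above the untreated arrays for each gene, and replicate 4 is the highest in 19 of the 20, the exception being Reg3b.

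Some genes of the IL-1 family rose. Il1b, the secreted inflammatory cytokine of activated myeloid cells, had 661, 900, 1054 and 4121 in KO day 15 arrays, against 43, 57, 36 and 15 in untreated KO arrays (5.12 ± 0.85, adjusted p = 0.00154). Il1a, its membrane-bound and alarm-type relative, had 29, 41, 26 and 299, against 8, 11, 9 and 10 in untreated KO (2.35 ± 0.44, adjusted p = 0.00494). Il1rn, the antagonist that blocks their receptor, had 500, 596, 510 and 2254, against 250, 209, 234 and 331 in untreated KO (1.56 ± 0.31, adjusted p = 0.00807). The groups did not overlap for any of the 3, and the antagonist changed by fewer log2 units than the cytokines. Nlrp3, the inflammasome sensor upstream of IL-1beta release, had 26, 32, 21 and 119, against 16, 12, 16 and 12 in untreated KO, and its call ended without day 15 replicate 4 (adjusted p = 0.117) or untreated replicates 2 (0.0892) or 4 (0.0821). Of 15 measured genes of the family 4 rose, none fell, and the median was 1.06 (3 rose and 0.57 without replicate 4). Of all genes 0.491% rose, and 0.135% without replicate 4.

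Chemokines came next. Cxcl2, which attracts neutrophils through CXCR2, had 599, 808, 530 and 4325 in KO day 15 arrays, against 20, 20, 20 and 19 in untreated KO arrays (5.55 ± 0.91, adjusted p = 0.00152). Ccl4 had 112, 165, 103 and 2017, against 18, 12, 12 and 14 in untreated KO (3.98 ± 0.69, adjusted p = 0.0024), and Ccl3 had 98, 119, 73 and 2027, against 17, 14, 10 and 14 (3.72 ± 0.68, adjusted p = 0.00335). Ccl3 and Ccl4 encode macrophage inflammatory proteins. Replicate 4 exceeded the next array more than the other 3 differed among themselves. Without replicate 4 the differences were 4.86 for Cxcl2, 2.97 for Ccl4 and 2.60 for Ccl3 (adjusted p = 0.0146, 0.0146 and 0.0171). Cxcl1, a further CXCR2 ligand, did not pass, with 30, 63, 49 and 622 in KO day 15 arrays, against 20, 20, 8 and 20 in untreated KO arrays (2.26 ± 0.83, adjusted p = 0.169). Nor did Csf3, which drives neutrophil production, with 10, 12, 15 and 212, against 10, 9, 8 and 8 in untreated KO (adjusted p = 0.279). Day 15 replicate 4 alone was high for Csf3. Of 6 neutrophil-attracting chemokines 1 rose, and of 17 CC chemokines 2 rose, with medians of 1.85 and 0.51 (0.88 and 0.26 without replicate 4, with the same numbers of calls). Of all genes 0.491% rose.

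Acute-phase and antimicrobial genes were mixed. Saa3, a serum amyloid A made locally by macrophages and epithelium, had 1034, 890, 709 and 8403 in KO day 15 arrays, against 19, 14, 27 and 25 in untreated KO arrays (6.08 ± 0.89, adjusted p = 0.000383). Hp, the haptoglobin gene, had 263, 331, 235 and 4130, against 22, 22, 18 and 28 in untreated KO (4.47 ± 0.87, adjusted p = 0.00669), and lost its call without replicate 4 (adjusted p = 0.069). Reg3b, an antibacterial lectin of epithelium, had 1097, 1091, 37 and 481, against 8, 17, 14 and 11 in untreated KO (4.81 ± 0.99, adjusted p = 0.0112). Replicate 3 was low and replicate 4 not the highest for Reg3b, whose call ended without day 15 replicates 1 (adjusted p = 0.0587) or 4 (0.0607) or untreated replicate 1 (0.0512). Its neighbour Reg3g, with 226, 170, 11 and 73, against 12, 15, 13 and 12 in untreated KO, overlapped between the groups. It was called over all arrays (2.35 ± 0.55, adjusted p = 0.0325) but, of 8 fits without 1 array, only in that without day 15 replicate 3, with adjusted p of 0.0517 to 0.162 in the others. Retnlb, a goblet cell product, had 718, 2074, 1965 and 416 in KO day 15 arrays, against 182, 243, 208 and 176 in untreated KO arrays, which did not overlap but did not pass (2.37 ± 0.74, adjusted p = 0.111). Of the 19 measured genes of this list 4 rose (0.491% of all genes did) and none fell, with a median of 0.39. Without replicate 4, 1 rose and the median was 0.56.

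The list of 28 genes known to be induced by IL-17 had 7 rises, no falls and a median of 1.45, which was 0.93 with 4 rises without replicate 4. Of all genes 0.491% rose, and 0.135% without replicate 4. The 7 were Cxcl2, S100a8, S100a9, Saa3, Reg3b, Reg3g and Ptgs2, of which all but Ptgs2 also belong to lists described above. Ptgs2, the inducible cyclooxygenase, had 119, 157, 217 and 1037 in KO day 15 arrays, against 16, 21, 30 and 28 in untreated KO arrays (3.30 ± 0.69, adjusted p = 0.0132, but 0.136 without day 15 replicate 4 and 0.0627 without untreated replicate 1). In WT the same list had a median change of 1.24 at day 15, and none of its genes passed the test of a genotype difference in the change. That does not show equal changes, as untreated WT replicate 4 was high for S100a8 (1101) and S100a9 (2426). Of the 17 measured IL-17 cytokines, receptors and type 17 regulators none passed, and their median was 0.07. Il17a read 11, 12, 14 and 20 in KO day 15 arrays, against 11, 14, 10 and 8 in untreated KO arrays (adjusted p = 0.301). Il17ra, the partner chain, read 135, 78, 106 and 363, against 80, 76, 94 and 86 in untreated KO (adjusted p = 0.188), and Traf3ip2, the adaptor Act1, 170, 156, 160 and 140, against 169, 165, 179 and 180 (adjusted p = 0.309). Il17re, a receptor chain for IL-17C, read 86, 73, 67 and 48, against 73, 72, 93 and 88 in untreated KO (adjusted p = 0.345). The transcripts of Il17a, Il17b, Il25 and Il23a were near background in both KO groups.

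Genes of metabolic enzymes and of several other roles were also among the largest rises. Acod1, which makes the antimicrobial metabolite itaconate, had 410, 777, 581 and 4256 in KO day 15 arrays, against 15, 23, 19 and 14 in untreated KO arrays (5.60 ± 0.79, adjusted p = 0.000262). Arg2, a mitochondrial arginase, had 108, 63, 63 and 629, against 8, 9, 12 and 11 in untreated KO (3.49 ± 0.49, adjusted p = 0.000262). Hcar2, a receptor for butyrate and beta-hydroxybutyrate, had 54, 137, 120 and 558, against 16, 13, 13 and 11 in untreated KO, and its call ended without replicate 4 (adjusted p = 0.0944). Samsn1, an adaptor of blood cells, rose by 3.06 ± 0.59 log2 units (adjusted p = 0.00638, and 0.0489 without replicate 4). Plek, a substrate of protein kinase C in platelets and leukocytes, rose by 2.98 ± 0.57, with an adjusted p of 0.0607 without replicate 4. Hdc, the histamine-forming enzyme, rose by 2.98 ± 0.68 and the secreted bone morphogenetic protein binder Chrdl2 by 3.19 ± 0.71, with adjusted p = 0.0253 and 0.0223. Both calls ended without day 15 replicate 4 (0.228 and 0.203) or untreated replicates 1 (0.0694 and 0.0698) or 4 (0.0679 and 0.0698), that of Hdc also without untreated replicate 2 (0.0759) and that of Chrdl2 without day 15 replicate 1 (0.061). Over the 20 largest rises, replicate 4 was a median of 5.94 times the next highest day 15 array, from 0.438 times for Reg3b to 17 times for Ccl3. The other 38 rises whose groups did not overlap and whose day 15 mean was at least 32 changed by 0.37 to 2.97 log2 units.

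Promoter windows of Cxcl2 and Saa3 are shown, chosen after the matches were seen, as the windows with a match to the NF-kB motif or to the core of the interferon-stimulated response element (ISRE) among the rises that stayed past the threshold in every fit without 1 array and with the 8 arrays alone. Of the others, S100a8, Acod1 and Il1b held no match to any motif searched, and S100a9 held a C/EBP match at 236 bases before the start. Windows run from 250 bases before to 50 bases after the RefSeq transcription start on GRCm38.p6, at chr5:90903649-90903948 (plus strand) for Cxcl2 and chr7:46715627-46715926 (minus strand) for Saa3. The windows were searched on both strands for the NF-kB motif, the C/EBP motif TTGCNNAA, the AP-1 motif TGANTCA, the ISRE core (GAAA and GAAA 2 bases apart) and the GAS motif TTCNNNGAA, and matches are in capitals. Cxcl2 holds 2 overlapping NF-kB matches that begin 97 and 96 bases before the start, and Saa3 an ISRE core match at 125 and a C/EBP match at 99 bases before it.
Cxcl2: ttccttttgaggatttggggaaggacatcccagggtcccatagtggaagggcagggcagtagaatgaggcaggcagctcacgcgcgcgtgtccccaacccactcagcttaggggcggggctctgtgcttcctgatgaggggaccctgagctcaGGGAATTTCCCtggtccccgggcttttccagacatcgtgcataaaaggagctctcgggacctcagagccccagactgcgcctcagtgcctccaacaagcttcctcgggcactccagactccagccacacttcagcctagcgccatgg
Saa3: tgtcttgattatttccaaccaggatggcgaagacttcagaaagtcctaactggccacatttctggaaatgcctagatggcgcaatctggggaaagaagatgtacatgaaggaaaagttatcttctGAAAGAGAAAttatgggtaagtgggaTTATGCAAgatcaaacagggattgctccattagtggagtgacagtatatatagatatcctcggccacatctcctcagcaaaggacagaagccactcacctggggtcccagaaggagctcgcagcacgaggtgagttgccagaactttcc
Among all 32851 promoter windows, 4.51% held an NF-kB match, 10.8% a C/EBP match, 7.81% an AP-1 match, 3.44% an ISRE core match and 8.3% a GAS match. Of the 15 largest-rise genes with a window, 1 held NF-kB, 4 C/EBP, 2 the ISRE core and 2 GAS. Of the 15 largest-fall genes with a window, 1 held NF-kB, 3 C/EBP, 2 AP-1, 1 the ISRE core and 2 GAS. Matches are letters in these windows only.

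None of 23 measured monocyte and macrophage genes passed, and their median was 0.95, or 0.63 without replicate 4. In 11 of the 23 the day 15 arrays lay above the untreated arrays, where 4.73% of all genes did so. Cd14, the lipopolysaccharide co-receptor, had 1220, 1581, 1368 and 5950 in KO day 15 arrays, against 744, 810, 589 and 685 in untreated KO arrays (1.50 ± 0.38, adjusted p = 0.0504). Clec7a, the beta-glucan receptor Dectin-1, had 314, 256, 503 and 913, against 106, 120, 143 and 95 in untreated KO (1.87 ± 0.49, adjusted p = 0.0572). Lyz2, macrophage lysozyme, had 3565, 1755, 2245 and 3198, against 1418, 1670, 1756 and 777 in untreated KO, with replicate 2 close to the untreated values (0.95 ± 0.29, adjusted p = 0.107). The 5 monocyte and macrophage markers summed to 2453 to 5953 in KO day 15 arrays, against 1290 to 2574 in untreated KO arrays, which overlapped.

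Some tissue remodelling genes rose. Mmp7, matrilysin, an epithelial protease and Wnt target, had 78, 54, 89 and 24 in KO day 15 arrays, against 10, 7, 10 and 10 in untreated KO arrays (2.32 ± 0.45, adjusted p = 0.00638). Here replicate 4 was the lowest day 15 array, and the difference without it was 2.75 (adjusted p = 0.00272). Plaur, the urokinase receptor, had 61, 60, 79 and 516, against 25, 22, 26 and 17 in untreated KO (2.13 ± 0.50, adjusted p = 0.0308, but 0.268 without day 15 replicate 4 and 0.072, 0.0829 and 0.107 without untreated replicates 1, 2 and 4). Mmp12, macrophage elastase, had 40, 37, 93 and 272, against 14, 14, 12 and 15 in untreated KO and did not pass (adjusted p = 0.0504). Of 18 matrix metalloproteinases and related genes 2 rose (0.491% of all genes did), with a median of 2.08. In 8 the day 15 arrays lay higher without overlap, where 4.73% of all genes did so. Without replicate 4, 1 rose and the median was 1.19. Genes outside the immune lists rose as well. Sct, secretin, a hormone of S cells, had 122, 93, 126 and 67, against 28, 33, 26 and 19 in untreated KO (1.72 ± 0.31, adjusted p = 0.00285). Cck, cholecystokinin, had 22, 19, 16 and 33, against 10, 9, 8 and 8 in untreated KO (1.12 ± 0.22, adjusted p = 0.00807, and 0.069 without replicate 4). Slc10a2, the sodium-dependent bile acid transporter of the ileum, had 163, 95, 92 and 241, against 39, 29, 28 and 40 in untreated KO (1.90 ± 0.38, adjusted p = 0.00807, and 0.0797 without replicate 4). Of 17 enteroendocrine genes 2 rose (0.491% of all genes did), Sct and Cck, with a median of 0.47 (1 and 0.28 without replicate 4).

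**Figure D2:**
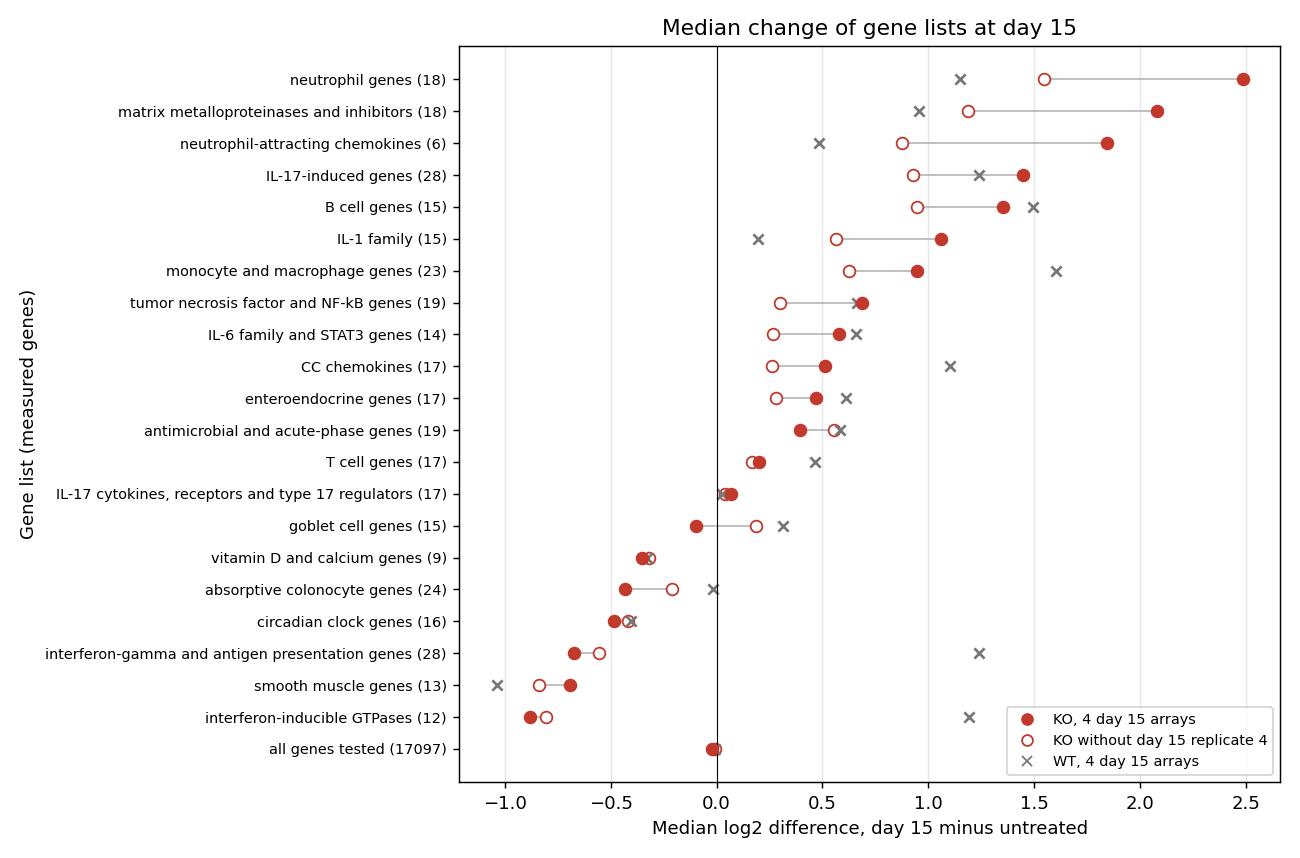
Median log2 difference, day 15 minus untreated, of 21 gene lists and of all genes, with the number of measured genes in brackets. Filled points are KO, open points KO without day 15 replicate 4, crosses WT. The neutrophil list has the highest KO median (2.49, and 1.55 without replicate 4), and the interferon lists have KO medians below 0 and WT medians above 0.

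Some genes of epithelial calcium uptake fell in KO colon. S100g encodes calbindin-D9k, which carries calcium across the enterocyte, and had 48, 152, 98 and 16 in KO day 15 arrays, against 652, 575, 380 and 841 in untreated KO arrays (-3.40 ± 0.62, adjusted p = 0.00333). Trpv6, the apical calcium entry channel, had 14, 13, 17 and 12, against 80, 65, 114 and 232 in untreated KO (-2.90 ± 0.43, adjusted p = 0.000383). Every KO day 15 array lay below every untreated KO array for both genes. Without replicate 4 the differences were -2.80 and -2.84 (adjusted p = 0.0359 and 0.00272). With the 8 arrays alone the limma adjusted p was 0.0793 for S100g and 0.0143 for Trpv6. KO day 7 means were 146.5 for S100g and 50.5 for Trpv6. In untreated WT the means were 158.5 and 76, and the WT changes -0.53 (adjusted p = 0.723) and -1.42 (adjusted p = 0.0579). Trpv6 in KO at day 15 was near background, so the size of its fall depends on the pseudocount. Both genes are induced by vitamin D in intestine. Of 9 measured vitamin D and calcium genes these 2 fell (0.322% of all genes did) and none rose, also without replicate 4, and the median was -0.35. Without overlap 4 lay lower and 1 higher, where 3.14% and 4.73% of all genes did so. The higher one was Cyp24a1, the vitamin D-induced enzyme that degrades the hormone, which read 13, 12, 13 and 12 in KO day 15 arrays, against 10, 10, 10 and 9 in untreated KO arrays, all near background (0.31 ± 0.09, adjusted p = 0.0874). Atp2b1, the basolateral calcium pump, had 645, 557, 444 and 558, against 787, 733, 733 and 882 in untreated KO, without overlap but not past the threshold (-0.54 ± 0.16, adjusted p = 0.101). The 3 measured small intestine markers summed to 53 to 422 in KO day 15 arrays, against 335 to 1166 in untreated KO arrays, which overlapped. In WT their sums were 56 to 274 at day 15, against 62 to 89 untreated. Of these markers, Fabp6, the ileal bile acid-binding protein, had 308, 395, 129 and 31 in KO day 15 arrays, against 820, 1146, 314 and 662 in untreated KO. Fabp6 fell by 2.24 log2 units (adjusted p = 0.0479), overlapped between the groups, and had an adjusted p of 0.395 without day 15 replicate 4 and of 0.146, 0.146 and 0.111 without untreated replicates 1, 2 and 4. The part of tissue position along the gut in these results was not tested.

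The clock-controlled transcription factor gene Dbp had 55, 77, 124 and 53 in KO day 15 arrays, against 495, 446, 171 and 251 in untreated KO arrays (-2.23 ± 0.39, adjusted p = 0.0024). Cry1, a repressor of the clock, had 157, 121, 129 and 139, against 88, 100, 67 and 80 in untreated KO (0.60 ± 0.15, adjusted p = 0.0468), a call that ended without day 15 replicates 1 or 4 or untreated replicates 1, 3 or 4 (adjusted p = 0.098 to 0.168). Of 16 measured clock genes these were the 2 that passed (0.813% of all genes did), 1 in each direction, and the median was -0.48. WT colons had 209, 68, 142 and 95 for Dbp at day 15, against 190, 550, 447 and 426 untreated, a change of -1.65 log2 units.

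Other falls covered several roles. Alox15, the 12/15-lipoxygenase of alternatively activated macrophages and eosinophils, had 15, 13, 13 and 8 in KO day 15 arrays, against 36, 46, 45 and 35 in untreated KO arrays (-1.70 ± 0.29, adjusted p = 0.0024). Dpyd, which starts pyrimidine breakdown, had 31, 50, 41 and 39, against 116, 102, 67 and 92 in untreated KO (-1.38 ± 0.22, adjusted p = 0.000871). Tns4, an adhesion adaptor of epithelium, had 134, 189, 212 and 71, against 559, 498, 399 and 517 in untreated KO (-1.90 ± 0.34, adjusted p = 0.00299). Sectm1a had 34, 61, 75 and 13, against 139, 126, 157 and 167 in untreated KO (-2.02 ± 0.34, adjusted p = 0.00197). Ak7, an adenylate kinase of cilia, had 36, 34, 29 and 28, against 139, 139, 38 and 67 (-1.53 ± 0.27, adjusted p = 0.00285). In these 5 genes the groups did not overlap, and each stayed past the threshold in all 8 fits without 1 array. With the 8 arrays alone, limma adjusted p was 0.0116 for Alox15, 0.0677 for Dpyd, 0.0819 for Tns4, 0.187 for Sectm1a and 0.225 for Ak7. In WT the changes were -0.25 for Alox15, -2.50 for Dpyd, -1.36 for Tns4, -0.38 for Sectm1a and -0.37 for Ak7. Untreated WT means were 12.25 for Alox15, 32.25 for Sectm1a and 26.75 for Ak7, but 242 for Dpyd and 506 for Tns4. In the same order, KO day 7 means were 12.75, 50.5, 45.5, 150.25 and 716.

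Cldn23, a claudin of tight junctions, had 179, 192, 237 and 114 in KO day 15 arrays, against 320, 372, 352 and 435 in untreated KO arrays (-1.14 ± 0.20, adjusted p = 0.00282, and 0.0266 without replicate 4). It was the 1 gene of 17 tight junction and barrier genes that passed, where 0.813% of all genes did. The median of these 17 was -0.35, and -0.08 without replicate 4. Of 24 absorptive colonocyte genes none passed, with a median of -0.43 (-0.21 without replicate 4), and 6 lay lower without overlap, where 3.14% of all genes did so. Slc37a2, a sugar-phosphate exchanger, had 166, 308, 262 and 81, against 604, 603, 537 and 697 in untreated KO (-1.81 ± 0.48, adjusted p = 0.0605). Of 15 goblet cell genes none passed. Clca1, a secreted goblet cell protease, had 4208, 4116, 5770 and 792, against 5603, 5869, 4887 and 5161 in untreated KO, so that replicate 4 alone lay far below the untreated arrays. The goblet median was -0.10, and 0.19 without replicate 4. Among the 20 largest falls, replicate 4 was the lowest day 15 array in 17. Besides those described, Optc and C1qtnf3 kept their call in 7 of the 8 fits without 1 array, with adjusted p = 0.0503 and 0.0678 without replicate 4. Tppp, Tgm3, Igfbp2, 5033404E19Rik, Vstm5, Bex1, Tnnt2, Slc6a4 and Clic6 kept it in 2 to 5, and their highest adjusted p lay between 0.0862 for Igfbp2 and 0.339 for Slc6a4. With the 8 arrays alone limma adjusted p was 0.00134 for Optc, 0.00868 for Tnnt2, 0.0162 for Igfbp2, 0.0378 for C1qtnf3 and 0.0384 for Tppp. For Bex1, Tgm3, Vstm5, 5033404E19Rik, Slc6a4 and Clic6 it was 0.0677 to 0.313. The other 20 falls whose groups did not overlap and whose untreated mean was at least 32 changed by -1.36 to -0.50 log2 units.

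**Figure D3:**
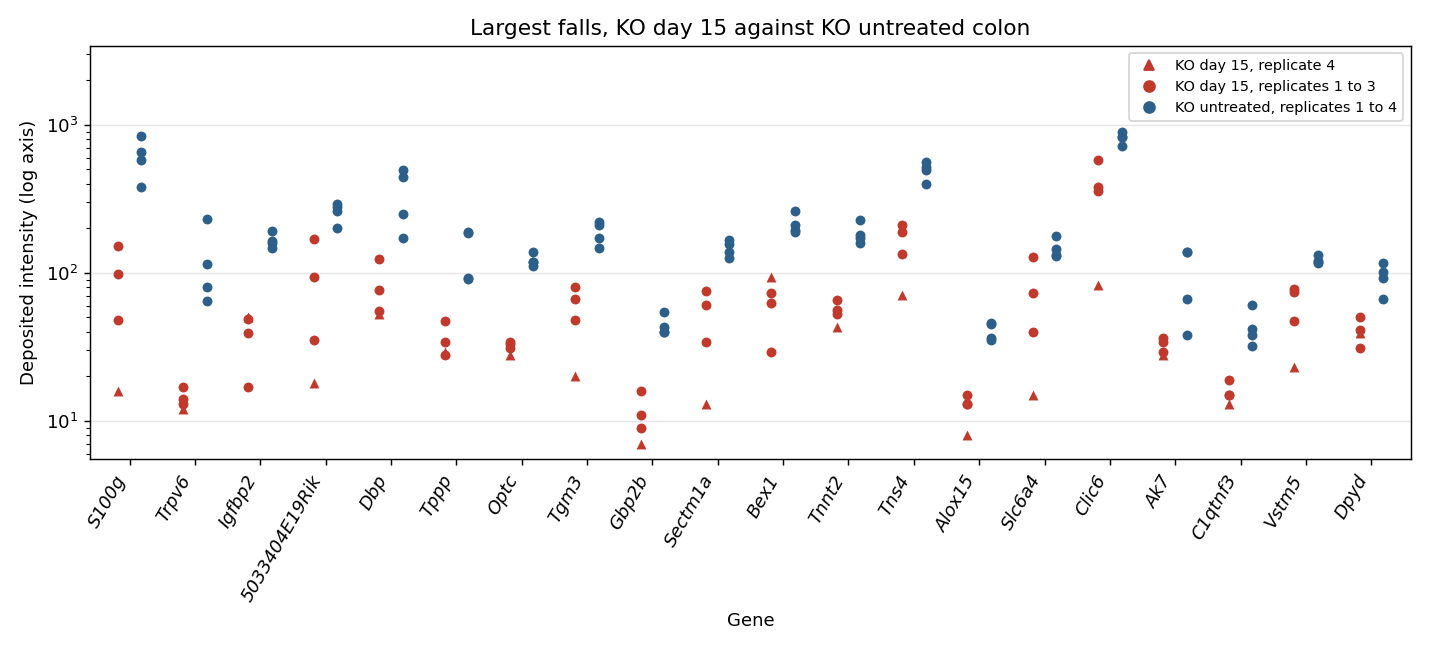
Deposited intensity on a log axis for the 20 largest falls, 1 point per array, KO day 15 in red (replicate 4 as a triangle) left of KO untreated in blue. Trpv6, Gbp2b and Alox15 reach values near background at day 15, and replicate 4 is the lowest day 15 array in 17 of the 20 genes.

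Interferon-inducible genes stood lower in KO day 15 arrays than in untreated KO arrays, although only Gbp2b passed. Interferon-gamma induces guanylate-binding proteins, immunity-related GTPases, the immunoproteasome and antigen presentation genes in epithelium and macrophages. Gbp2b, a guanylate-binding protein gene, had 16, 9, 11 and 7 in KO day 15 arrays, against 54, 43, 40 and 40 in untreated KO arrays (-2.03 ± 0.18, adjusted p = 1.57e-08). With the 8 arrays alone the limma adjusted p was 0.00868. Gbp2b read 7, 7, 9 and 7 in KO day 7 arrays and had a mean of 8.33 in KO tumors. Untreated KO was thus the only KO group clearly above background for this gene. The low values of Gbp2b lie near background, and probe sets of this gene family can bind close relatives. Of 28 measured interferon-gamma and antigen presentation genes none passed, the median was -0.67 (-0.55 without replicate 4), and in 17 the 4 day 15 arrays lay below the 4 untreated arrays, where 3.14% of all genes did so. Of 12 interferon-inducible GTPases other than Gbp2b none passed, the median was -0.88 (-0.80 without replicate 4), and 10 lay lower without overlap. H2-DMb1, a subunit of the factor that loads peptides on class II molecules, had 306, 244, 118 and 121, against 512, 435, 389 and 388 in untreated KO (-1.29 ± 0.42, adjusted p = 0.125). Igtp, an immunity-related GTPase, had 827, 749, 602 and 531, against 1058, 2012, 2227 and 2101 in untreated KO (-1.43 ± 0.52, adjusted p = 0.169). Irf1, the transcription factor that interferon-gamma induces, had 802, 892, 951 and 515, against 1030, 1209, 1477 and 1469 in untreated KO (-0.74 ± 0.27, adjusted p = 0.16). Of 27 type I interferon-stimulated genes none passed, with a median of -0.23 and 3 lower without overlap, where 3.14% of all genes lay lower.

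The change at day 15 was then compared between genotypes as the difference of the 2 changes. The test called 14 genes (0.0819%), 13 with a lower change in KO and 1, Plekha1, with a higher one. Gbp2b read 19, 10, 9 and 7 in WT at day 15, against 9, 6, 8 and 7 in untreated WT, a change of 0.43 that did not pass (adjusted p = 0.185), and its difference of changes was -2.47 ± 0.25 (adjusted p = 7.27e-07). Il18bp, the secreted inhibitor of interleukin-18, had 186, 134, 140 and 109 in KO day 15 arrays, against 266, 329, 419 and 432 in untreated KO arrays, and 56, 49, 29 and 38 in WT at day 15, against 23, 14, 13 and 13 in untreated WT. The 4 KO day 15 arrays lay below the untreated KO arrays and the 4 WT day 15 arrays above the untreated WT arrays, with a difference of changes of -2.75 ± 0.52 (adjusted p = 0.0286). Lgals9, galectin-9, had 201, 197, 145 and 134 in KO at day 15, against 187, 188, 365 and 284 in untreated KO, and 129, 146, 110 and 100 in WT at day 15, against 58, 49, 58 and 36 in untreated WT (-1.91 ± 0.36, adjusted p = 0.0286). Ctsw, a cathepsin of cytotoxic lymphocytes, differed by -1.89 ± 0.35, and the class I heavy chain gene H2-D1 by -0.94 ± 0.18 (adjusted p = 0.0286 for both). Ly6c1, a marker of monocytes and endothelium, had 2278, 2122, 1749 and 2492 in KO at day 15, against 1991, 2074, 2517 and 2400 in untreated KO, and 1211, 1386, 820 and 2307 in WT at day 15, against 358, 480, 292 and 329 in untreated WT (-1.96 ± 0.38, adjusted p = 0.0286). The KO groups overlapped for Ly6c1, and in WT it rose by 1.91 log2 units (adjusted p = 6.68e-05). Plekha1 had 197, 149, 174 and 223 in KO at day 15, against 170, 162, 151 and 163 in untreated KO, and 196, 149, 184 and 223 in WT at day 15, against 283, 353, 304 and 299 in untreated WT (0.82 ± 0.17, adjusted p = 0.0452). Probe sets of H2-D1, Ly6c1 and Rnaset2b can bind close family members.

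Untreated KO arrays started higher than untreated WT arrays in this group of genes. All 28 interferon-gamma and antigen presentation genes had a higher mean in untreated KO than in untreated WT colon, and 28 of 28 also had a higher mean in KO than in WT at day 15. Mean intensity was lower in KO day 15 than in untreated KO arrays for 25 of the 28, and higher in WT day 15 than in untreated WT arrays for 28. On the log2 scale the KO change was above 0 for 3 of the 28, against 7916 of all 17097 genes. Shares of all genes were not counted for the other comparisons of means. The untreated WT means include 2 arrays with Krt5 above 100. The median change of the 28 was -0.67 in KO and 1.24 in WT, and the median of the differences of changes was -1.59, with 1 of 28 past the test (H2-D1). For the 12 GTPases the medians were -0.88 in KO and 1.19 in WT, with 1 past the test of the difference (Ifi47, -3.50 ± 0.71, adjusted p = 0.0359, named after its values were seen). Gbp2b kept its call in each of the 16 fits that left out 1 array, and the other 8 named genes kept theirs in 3 to 8 of the 16. The count of 14 was 1 without KO day 15 replicate 3 or 4, untreated KO replicate 3 or 4, WT day 15 replicate 1 or 2, or untreated WT replicate 3 or 4, 5 without KO day 15 replicate 1 or 2, 2 without untreated KO replicate 2, 24 without untreated WT replicate 1 and 95 without WT day 15 replicate 4. Krt5 exceeded 100 in 2 untreated WT arrays, and without all 7 arrays of the series above that limit 8 genes were called, 2 of them among the 14. Over the 16 arrays compared 12 were called, 6 of them among the 14, and over the same arrays with the replicate number as a block 24, 8 of them among the 14. None of the 20 largest rises passed this test, which does not show that their changes were equal. Untreated WT replicate 4 was high for S100a9 (2426, against 165, 25 and 34 in the others) and Cxcl2 (157, against 17, 12 and 10). Il1b likewise had 289, against 19, 13 and 10, but Saa3 had 14, against 11, 12 and 14. A high untreated array lowers the WT change and widens the spread. S100a8 had 490, 869, 192 and 5585 in WT at day 15, against 35, 10, 11 and 1101 in untreated WT, and the difference of its changes was 3.30 ± 1.87 (adjusted p = 0.692). Acod1, with 37, 122, 26 and 287 in WT at day 15, against 19, 12, 15 and 78 in untreated WT, differed by 3.86 ± 1.11 (adjusted p = 0.25), and Retnlb by -4.53 ± 1.05 (adjusted p = 0.0784).

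**Figure D4:**
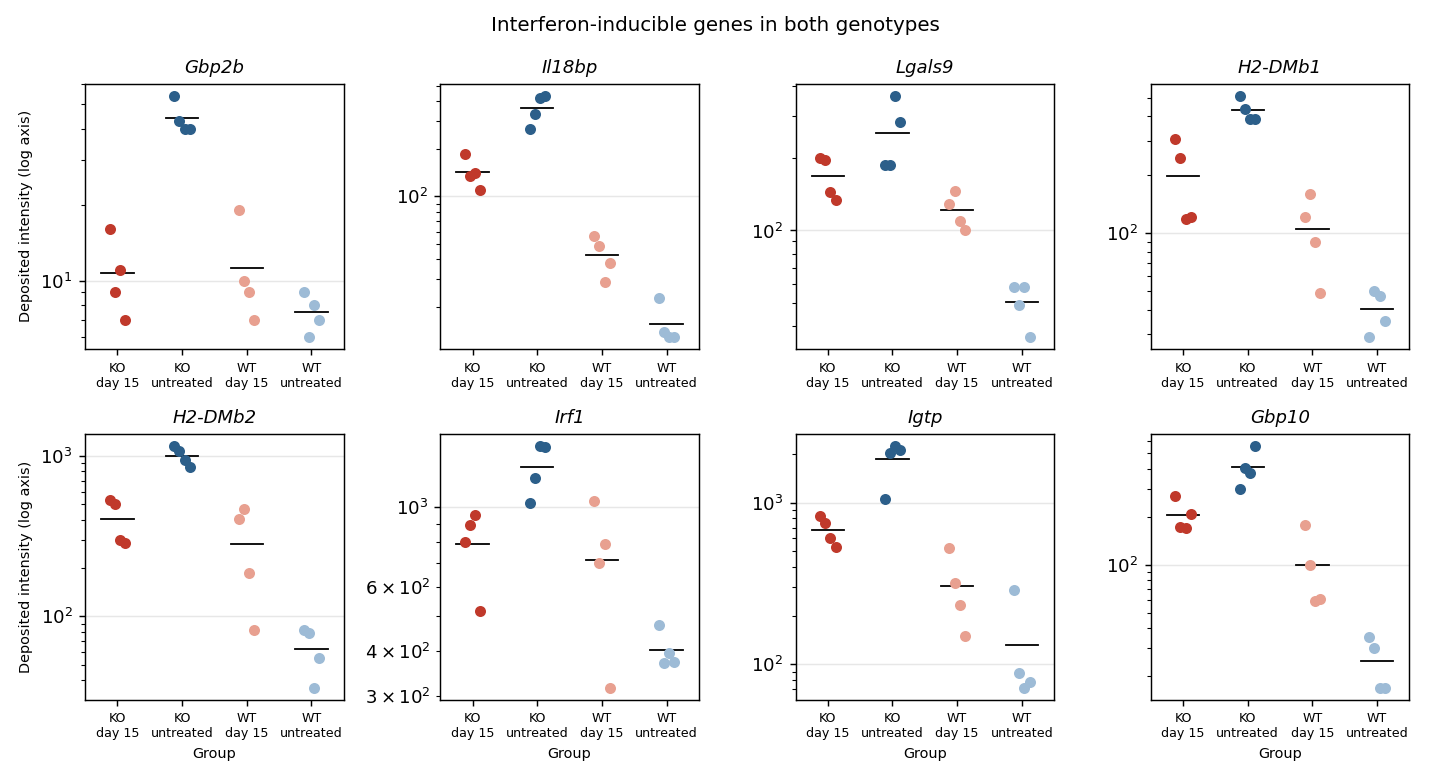
Deposited intensity on log axes for 8 interferon-inducible genes, 4 arrays per group, with a line at each mean. KO arrays are lower at day 15 than untreated for most of them, WT arrays at day 15 are higher than untreated WT arrays for most, and Gbp2b in WT stays near background at 6 to 19.

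The promoters of Gbp2b and Lgals9 are shown because these are the genes named by the test of the genotype difference whose windows hold an ISRE core match. Gbp2b lies at chr3:142594597-142594896 (plus strand) and Lgals9 at chr11:78984875-78985174 (minus strand), GRCm38.p6, from RefSeq. Capitals mark matches to the motifs given above.
Gbp2b: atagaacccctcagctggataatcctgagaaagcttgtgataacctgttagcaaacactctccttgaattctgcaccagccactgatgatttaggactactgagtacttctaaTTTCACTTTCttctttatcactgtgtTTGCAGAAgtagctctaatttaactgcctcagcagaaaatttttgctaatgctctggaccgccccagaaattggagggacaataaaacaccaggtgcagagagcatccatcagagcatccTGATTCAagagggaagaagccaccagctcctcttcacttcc
Lgals9: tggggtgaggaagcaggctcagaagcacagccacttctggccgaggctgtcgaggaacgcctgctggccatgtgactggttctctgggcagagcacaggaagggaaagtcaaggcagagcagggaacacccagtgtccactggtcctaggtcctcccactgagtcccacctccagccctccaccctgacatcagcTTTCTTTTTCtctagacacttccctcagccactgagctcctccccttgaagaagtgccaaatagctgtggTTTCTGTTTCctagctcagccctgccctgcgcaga
In Gbp2b the ISRE core match begins 137 bases before the transcription start, on the reverse strand, with a C/EBP match at 111 bases before it and an AP-1 match at base 10 after it. In Lgals9 ISRE core matches begin 55 bases before the start and at base 16 after it, also on the reverse strand. An ISRE core match was present in 3.44% of all windows. The windows of Il18bp, Ly6c1, Slc43a1, H2-D1, Rnaset2b and Plekha1, also named by that test, held none.

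Smooth muscle genes had medians below 0 in both genotypes. Of 13 measured genes none passed in KO, the median was -0.69 (-0.84 without replicate 4), and 7 lay lower without overlap, where 3.14% of all genes did so. Pcp4, a calmodulin regulator of neurons and smooth muscle, had 124, 105, 132 and 77 in KO day 15 arrays, against 385, 268, 453 and 568 in untreated KO arrays (-2.00 ± 0.59, adjusted p = 0.0929). Des, desmin, had 686, 424, 540 and 952, against 1419, 1243, 1387 and 1254 in untreated KO (-1.11 ± 0.53, adjusted p = 0.295). The 5 smooth muscle markers summed to 7121 to 13217 in KO day 15 arrays, against 13878 to 15049 in untreated KO arrays, and to 7079 to 14306 in WT at day 15, against 15901 to 19820 in untreated WT. The WT median of the list was -1.04, and none of its genes passed the test of the genotype difference. The part of the layers sampled in these values was not tested.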

How the data were processed

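Minced and homogenized colon was lysed in TRIzol, and the RNA was labelled with biotin by the GeneChip HT IVT Express kit, per the labels' protocols. It was read on Affymetrix HT MG-430 PM arrays. The authors deposited linear intensity values as whole numbers for 45037 probe sets on 36 arrays. The sources used here do not state how background, normalization and summarization were handled. Platform annotation gave 1 symbol to 28898 probe sets, several to 551 and none to 15588, and only the first were kept. A gene was read from its brightest probe set over the 36 arrays, for 17097 genes in all.

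Values were taken as log2(intensity + 1) and quantile normalized. Tests used limma 3.58.1 in R 4.3.3 with a mean for each of 8 groups, moderated variances with an intensity trend and Benjamini-Hochberg adjustment over all genes, at a threshold of 0.05. Each ± beside a log2 difference is the standard error of this model. Nothing in the labels says that arrays of a group came from separate animals, so the p-values reflect only the spread between arrays, which may be technical. Arrays have no read depth, and their number and signals near background (36% of genes had a mean below 16) limit precision. No pair of arrays was identical.

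Named genes were the 20 largest rises and falls among called genes whose groups did not overlap and whose higher mean was at least 32, up to 4 members of a described list by smallest p, the 8 smallest p in each direction for the genotype difference, IL-17 pathway members, S100a8, Krt5 and cell type markers. The comparison, the 61 lists (1062 symbols, 930 measured; some genes are in several lists) and the rule were chosen with earlier results of these data known. Not every gene the rule names is printed. Alternatives changed the normalization, pseudocount (16), filter on dim genes, probe sets per gene, variance moderation, array weights, arrays in the fit and blocks, and left out each array, arrays with Krt5 above 100 and, chosen after seeing the data, replicate 4 of both genotypes at day 15. KO day 15 and untreated KO arrays with equal replicate numbers deviated together with correlations of -0.144 to 0.086, so they were not taken as paired. Between KO and WT at day 15 the 4 correlations were 0.174 to 0.801, all above 0.1, and between WT day 15 and untreated WT -0.108 to 0.38. The labels state no pairing, and the blocked count is given beside the genotype difference. On simulated data for this comparison with 17097 genes, the procedure recovered 84% of 100 changes of 1 log2 unit. It recovered 98% of 100 changes of 2 log2 units, and 5.7% of calls were false. Simulated arrays were drawn independently, with the same spread per gene in all groups and no outlying array. These shares therefore do not measure power or false calls in the real arrays, where KO day 15 replicate 4 stands apart.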

Additional observations from a re-analysis of the deposited data

Results flagged for a closer look

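The 50 genes were each examined array by array within KO day 15 and within untreated KO, so more groups than genes were tested. Dixon's test marks about 1 in 20 groups by chance, and genes that share the same arrays are not independent. In 10 genes an array lay far from the other 3 of its group by this test. In 8 it was KO day 15 replicate 4 as the highest array, with intensities of 6239 for S100a8, 8403 for Saa3, 1574 for Clec4e, 4130 for Hp, 2017 for Ccl4, 2142 for Fpr2, 2027 for Ccl3 and 1761 for Plek. The same array was the lowest for Alox15, at 8. Untreated KO replicate 2 was apart for Chrdl2, at 21.

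The test of the genotype difference marked 9 named genes whose change at day 15 differed between KO and WT. The difference of changes, KO minus WT on the log2 scale, was -2.47 for Gbp2b, -1.89 for Ctsw, -1.91 for Lgals9, -2.75 for Il18bp, -1.96 for Ly6c1, -1.50 for Slc43a1, -0.94 for H2-D1, -0.70 for Rnaset2b and 0.82 for Plekha1. In Slc43a1, an amino acid transporter gene, KO arrays had 34, 37, 30 and 34 at day 15, against 32, 36, 37 and 32 untreated, and WT arrays 47, 63, 44 and 46, against 17, 27, 19 and 16 untreated.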

How the results depend on the processing

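Of the 59 called named genes, all 1294 values under alternatives kept their direction, 961 stayed past the threshold and 333 did not. The kept directions carry little weight. The 20 largest rises and 20 largest falls among these genes were chosen for groups without overlap, and the alternatives reuse the same arrays. The number of genes called between KO day 15 and untreated KO (139, of which 60.4% rose) was 35 with only the groups compared, 224 with array weights, 59 without replicate 4 of both genotypes at day 15, and 39 to 636 on leaving out 1 array. It was 148 with arrays centred on their medians, with 104 rises and 44 falls, and 183 without normalization between arrays, with 139 rises and 44 falls, against 84 and 55. Over the 8 arrays alone (35 called by limma, 2368 at an unadjusted p below 0.05), adding the replicate number as a block left 2 (2101) and adding the title code letter 0 (1588), where 1 residual degree of freedom remained. Equal numbers share no stated pairing. The number of genes whose change differed between genotypes (14) was 8 with centring, 9 without normalization, 24 without dim genes, 97 with array weights and, over the 16 arrays compared, where 12 were called without a block (1056 at an unadjusted p below 0.05), 24 with the replicate block (1287) and 0 with the letter block (301). It was 8 without the Krt5 arrays, 56 without replicate 4 of both genotypes and 1 to 95 on leaving out 1 array. Between KO and WT at day 15, 3 of 4 KO arrays correlated best with the WT array of the same number. Causes of these changes were not tested beyond the arrays or genes left out. Signals near background limit sizes: 56 called genes had 1 group mean below 16, and with a pseudocount of 16 the neutrophil median was 1.70 in place of 2.49.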

Other observations

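B cell and lymphoid follicle genes varied between single arrays within both KO groups. Of 15 B cell genes none passed and none was free of overlap, with a median log2 difference of 1.35 (0.95 without KO day 15 replicate 4). Bank1, a B cell scaffold protein gene, had 338, 30, 161 and 409 in KO day 15 arrays, against 13, 37, 134 and 10 in untreated KO arrays (2.40 ± 0.69, adjusted p = 0.0874). Cxcl13, the chemokine that draws B cells into follicles, had 1790, 431, 1391 and 5893, against 101, 486, 819 and 25 in untreated KO (3.11 ± 0.91, adjusted p = 0.0929). Day 15 replicate 2 was low and untreated replicate 3 high for both genes. The 4 B cell markers summed to 134 to 1534 in KO day 15 arrays, against 51 to 679 in untreated KO arrays.

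Mast cell protease gene Mcpt2, of mucosal mast cells, had 62, 44, 57 and 100 in KO day 15 arrays, against 15, 17, 14 and 12 in untreated KO arrays (1.89 ± 0.40, adjusted p = 0.0134), without overlap. Its call ended without day 15 replicate 4 (adjusted p = 0.0966) or untreated replicate 4 (0.0569). Of 13 mast cell genes 2 rose (0.491% of all genes did), Mcpt2 and Hdc, and none without day 15 replicate 4. The cell division lists held no call: medians were 0.03 over 27 DNA replication genes and -0.10 over 26 mitosis genes, and no gene of either was free of overlap. Of 19 fatty acid oxidation and ketogenesis genes none passed, 6 lay lower without overlap (3.14% of all genes did so) and the median was -0.30 (-0.17 without KO day 15 replicate 4). Of 20 endoplasmic reticulum stress genes none passed, 5 lay higher without overlap (4.73% of all genes) and the median was 0.21.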
